A study of Mus musculus with 7 samples.

Results

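The genes of the late and maturation-stage enamel proteins were examined in the dental epithelium of newborn mice: Amtn, Odam, Klk4, Gm17660 and Tuft1. They were taken by name, as genes of proteins known from late amelogenesis, and are 5 of the 25700 genes counted. All 5 passed the filter on low counts, which left 14791 genes for testing. Gm17660 is the annotation name of Scpppq1.

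Enamel is laid down by ameloblasts, which first secrete amelogenin, ameloblastin and enamelin and later turn to resorbing this matrix and transporting ions while the mineral hardens. Amelotin (Amtn), odontogenic ameloblast-associated protein (Odam) and SCPPPQ1 are secreted in this later stage and locate to the specialised basal lamina between maturation ameloblasts and enamel. They belong, with the secretory matrix proteins, to the secretory calcium-binding phosphoprotein (SCPP) family. Kallikrein-related peptidase 4 (Klk4) is the serine protease that degrades the remaining enamel matrix, and tuftelin (Tuft1) is an acidic protein first described in enamel that many other tissues also make.

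The samples were lower incisor epithelia of PN0 pups, detached with Dispase, and the left and right incisors of 1 pup made up 1 library. The series text says that the piece came from the posterior part of the epithelium. In K14;Nogo-A pups (K14cre cre/+; Nogo-A fl/fl, 4 libraries, replicates 1, 2, 7 and 10) a keratin 14 promoter drives Cre in epithelial cells, and wild-type pups (3 libraries, replicates 3, 8 and 9) were the controls. The study had another wild-type animal, not analysed here. The comparison asks how the loss of Nogo-A, a membrane protein best known for restricting neurite growth, from the epithelium affects the RNA of these genes.

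The targeted gene, Rtn4, averaged 327 CPM in K14;Nogo-A and 301 CPM in wild-type, a count over all Rtn4 isoforms that cannot check the loss of the Nogo-A isoform. Library totals lay between 20929207 and 29728532 counts in K14;Nogo-A and between 21021158 and 41219439 counts in wild-type. The 5 genes together took only 0.0063% to 0.0145% of all counts. Amelx alone, the amelogenin gene, took from 2.76% to 7.08% of the counts in K14;Nogo-A libraries, against 1.11% to 3.36% in wild-type libraries, and wild-type replicate 8 was the library with least Amelx. All 10 epithelial markers were detected in every library, and so were all 18 mesenchymal markers, whose mean level on the scale of log2 CPM (counts scaled to a common library size) ran from 7.58 up to 7.87 in K14;Nogo-A libraries and was 8.33, 8.38 and 8.25 in wild-type, without overlap. Y-linked transcripts were high in K14;Nogo-A replicate 1 and wild-type replicates 3 and 8 and near absent from the other libraries. In a bulk sample, fewer cells of a type and less RNA per cell cannot be told apart.

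Odam, Amtn and Gm17660 lie on chromosome 5, the chromosome of the SCPP cluster. In the GRCm38 coordinates of GENCODE M21, Odam spans chr5:87885029-87894174 on the plus strand and Amtn chr5:88376108-88385916 on the plus strand. Gm17660 spans chr5:104070064-104077608 on the minus strand. Klk4 lies in the kallikrein cluster at chr7:43881160-43885804 on the plus strand, and Tuft1 spans chr3:94612757-94658872 on the minus strand. Gm17660 shares 231 exon bases with Gm43333, a gene on the same strand, so its count is uncertain where reads could be assigned to either. No other gene shares exon bases with Amtn, Odam, Klk4 or Tuft1.

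The promoters of the 3 SCPP genes and of Klk4 are shown because Amtn and Klk4 varied widely between pups while Odam did not. Gm17660 varied less than Amtn and Klk4, at low counts. They are RefSeq windows of 300 bases in GRCm38.p6, with 250 bases before and 50 after the annotated start, written 5′ to 3′ on the strand of the gene. Capitals mark matches, on either strand, to 6 patterns: the RUNX motif TGTGGT, the CCAAT box, the TATA box with the letters TATAAA, 2 paired heat shock elements, inward as GAANNTTC and outward as TTCNNGAA, and the AP-1 motif TGANTCA. The windows are chr5:88375858-88376157 (Amtn), chr5:87884760-87885059 (Odam), chr5:104077559-104077858 (Gm17660) and chr7:43880910-43881209 (Klk4).
Amtn: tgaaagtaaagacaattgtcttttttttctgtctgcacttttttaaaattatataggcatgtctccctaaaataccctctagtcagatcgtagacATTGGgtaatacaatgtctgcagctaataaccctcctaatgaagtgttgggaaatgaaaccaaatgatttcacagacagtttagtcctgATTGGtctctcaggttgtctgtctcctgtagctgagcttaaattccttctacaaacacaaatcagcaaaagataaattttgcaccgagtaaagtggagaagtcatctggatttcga
Odam: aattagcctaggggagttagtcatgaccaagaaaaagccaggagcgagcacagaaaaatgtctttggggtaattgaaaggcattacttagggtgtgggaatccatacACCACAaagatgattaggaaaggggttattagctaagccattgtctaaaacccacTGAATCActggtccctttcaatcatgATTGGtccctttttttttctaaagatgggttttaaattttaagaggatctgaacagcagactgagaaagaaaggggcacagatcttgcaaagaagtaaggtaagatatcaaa
Gm17660: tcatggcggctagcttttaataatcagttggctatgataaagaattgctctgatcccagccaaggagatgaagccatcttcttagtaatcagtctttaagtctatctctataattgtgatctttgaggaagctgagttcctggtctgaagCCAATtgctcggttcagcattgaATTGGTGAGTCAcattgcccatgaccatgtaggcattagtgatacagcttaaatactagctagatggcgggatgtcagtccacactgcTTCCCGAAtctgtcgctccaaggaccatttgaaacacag
Klk4: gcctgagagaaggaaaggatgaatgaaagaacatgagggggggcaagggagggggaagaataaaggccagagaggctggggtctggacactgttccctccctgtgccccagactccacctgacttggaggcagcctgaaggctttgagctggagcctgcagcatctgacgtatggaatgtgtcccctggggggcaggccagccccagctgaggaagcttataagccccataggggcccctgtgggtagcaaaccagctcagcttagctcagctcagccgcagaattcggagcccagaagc

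Each of the 3 SCPP windows holds a CCAAT box in reverse orientation, read as ATTGG, close to the start. Its first base lies 66 bases upstream in Amtn, 62 bases upstream in Odam and 77 bases upstream in Gm17660. CCAAT in either orientation is common, with a match in 37.4% of 32851 windows, while ATTGG that begins 62 to 77 bases upstream occurs in 2.24% of them. This interval was drawn from the 3 genes themselves after their sequences were seen. Of the secretory genes, Enam also holds ATTGG in the interval, at 70 bases upstream, and Amelx holds it at 58 and 26 bases and Ambn at 47 and 39 bases upstream.

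The other matches differed between the genes. Odam holds TGAATCA, an AP-1 match, at 88 bases upstream and ACCACA, a RUNX match in reverse, at 143 bases upstream. Gm17660 holds TGAGTCA at 72 bases upstream directly behind its ATTGG, with which it shares no base, and TTCCCGAA just after the start. The shares of all windows with a match are 7.81% for TGANTCA, 16.8% for TGTGGT, 8.52% for TTCNNGAA, 7.86% for GAANNTTC and 13.6% for TATAAA. The Klk4 window matches none of the 6 patterns and has 59.3% G and C bases, against 37.0% in Amtn, 39.7% in Odam, 43.7% in Gm17660 and a median of 52.7% over all windows. A match is a description of the letters and not a bound site. The motifs were chosen after expression values were known.

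All 5 genes were expressed at birth, at levels far below those of the secretory genes. On the TPM scale, which divides counts by exon length, Odam had 98.3 ± 8.29 TPM in K14;Nogo-A and 100.05 ± 24.9 TPM in wild-type (SD, n = 4 and 3). Amtn had 72.2 ± 70.8 TPM in K14;Nogo-A and 35.3 ± 27.8 TPM in wild-type. Tuft1 had 24.6 ± 1.64 TPM in K14;Nogo-A and 22.6 ± 0.288 TPM in wild-type. Klk4 and Gm17660 were the scarcest. Klk4 had 9.58 ± 6.04 TPM in K14;Nogo-A and 4.70 ± 1.40 TPM in wild-type, and Gm17660 had 3.69 ± 0.612 TPM in K14;Nogo-A and 2.82 ± 0.421 TPM in wild-type. TPM is a share of a fixed total in each library, so a high Amelx level lowers the TPM of every other gene. Amelx averaged 166099 TPM in K14;Nogo-A and 77257 TPM in wild-type. These values therefore serve to compare genes rather than genotypes.

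The order of the levels was nearly the same in each pup. Odam was highest of the 5 in 6 of 7 libraries, and Amtn was highest in K14;Nogo-A replicate 7. Amtn, which ranged from 15.8 to 171 TPM over the libraries, exceeded Tuft1 in 4 of 7, so its place beside Odam and Tuft1 was not fixed beyond the spread between pups. Klk4 stood below Tuft1 and above Gm17660 in all 7. Over the 7 libraries Odam averaged 99.0 TPM, against 409 TPM for Mmp20, the metalloprotease enamelysin of the secretory stage, and 128024 TPM for Amelx. Odam thus reached about 1 in 1293 of the Amelx level.

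**Figure D1:**
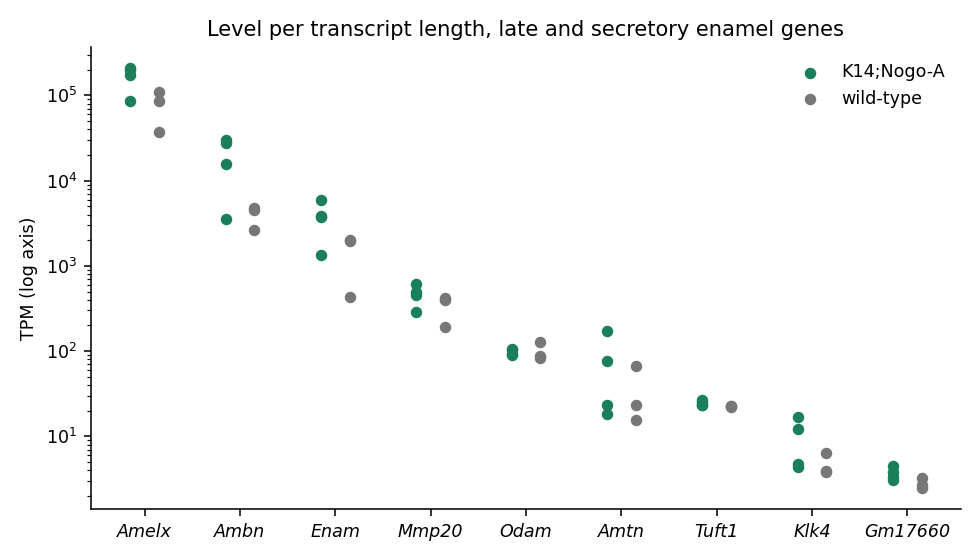
Level of the 5 late and 4 secretory enamel genes in TPM on a log axis, 1 point per library, K14;Nogo-A in green and wild-type in grey. Each late gene averaged below the lowest secretory gene, and Amtn spread from 15.8 to 171 TPM while Tuft1 stayed between 22.3 and 26.5 TPM.

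Amtn was the most variable of the basal lamina genes. It had 5.72, 27.4, 63.7 and 8.39 CPM in K14;Nogo-A replicates 1, 2, 7 and 10, against 4.77, 19.2 and 7.35 CPM in wild-type replicates 3, 8 and 9. Replicates 7 and 2 of K14;Nogo-A and replicate 8 of wild-type were high and the other 4 libraries low, so the genotypes overlapped. The highest K14;Nogo-A library had 11.1 times the level of the lowest, against 4.03 times among wild-type. The log2 fold change of K14;Nogo-A over wild-type was 1.33 (SE 1.04, 95% interval -1.31 to 3.96, edgeR quasi-likelihood adjusted p = 0.645, exact permutation p = 0.400). Without K14;Nogo-A replicate 7 it was 0.40, and without wild-type replicate 8 it was 2.15. The biological coefficient of variation of Amtn, the spread between pups of a genotype beyond counting error, was 85.4% and higher than that of 99.9% of the genes tested.

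Odam was steady from pup to pup. It had 45.6, 44.98, 51.8 and 43.2 CPM in K14;Nogo-A replicates 1, 2, 7 and 10, against 33.7, 49.6 and 38.0 CPM in wild-type replicates 3, 8 and 9. Wild-type replicate 8 lay among the K14;Nogo-A values and the other wild-type libraries below them. The log2 fold change was 0.20 (SE 0.13, 95% interval -0.09 to 0.49, edgeR adjusted p = 0.549, exact permutation p = 0.229), so the interval leaves room for a level 1.40 times as high or 0.940 times as high in K14;Nogo-A. The sign depends on the scale, since the mean TPM of Odam was slightly lower in K14;Nogo-A. Amelx took a larger mean share of the TPM total there. Its coefficient of variation of 13.3% was near the median of all genes, 13.7%.

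Gm17660, the third basal lamina gene, was close to the limit of detection. It was counted 17, 17, 20 and 16 times in K14;Nogo-A replicates 1, 2, 7 and 10, against 19, 16 and 12 times in wild-type replicates 3, 8 and 9. With the library sizes these counts gave 0.784, 0.751, 0.697 and 0.610 CPM in K14;Nogo-A, against 0.453, 0.390 and 0.576 CPM in wild-type. All K14;Nogo-A values lay above all wild-type values, by a narrow margin between K14;Nogo-A replicate 10 and wild-type replicate 9. On the TPM scale these libraries stood at 3.08 TPM and 3.29 TPM, so there the genotypes overlapped. The raw counts themselves overlapped, and 2 of the wild-type libraries were the deepest. The log2 fold change was 0.61 (SE 0.33, 95% interval -0.10 to 1.33, edgeR adjusted p = 0.453). The exact permutation p was 0.0286, the smallest that 4 against 3 libraries can give. Exact Poisson 95% intervals of single counts ran from 9.15 to 26.0 for a count of 16, and counting error alone gave a coefficient of variation of 24.5% at the mean count. After the counts were thinned to the smallest library, the log2 fold change was 0.33. Gm43333, which shares exon bases with it, had 5 to 16 counts and a log2 fold change of 0.55 (SE 0.43, edgeR adjusted p = 0.618).

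Klk4, the matrix protease, was expressed at a few CPM and varied like Amtn in K14;Nogo-A. It had 1.85, 5.39, 7.67 and 1.94 CPM in K14;Nogo-A replicates 1, 2, 7 and 10, against 2.34, 1.34 and 1.54 CPM in wild-type replicates 3, 8 and 9, from 32 to 220 counts. K14;Nogo-A replicates 7 and 2 stood above all other libraries, whereas K14;Nogo-A replicates 1 and 10 lay within the wild-type range. The log2 fold change was 1.27 (SE 0.51, 95% interval 0.11 to 2.43, edgeR p = 0.0348, adjusted p = 0.350, exact permutation p = 0.229). Without K14;Nogo-A replicate 7 it was 0.80, with an edgeR p of 0.0881. Its coefficient of variation of 44.2% exceeded that of 98.8% of the genes.

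Tuft1 varied little between pups, with a coefficient of variation of 12.0%, the lowest of the 5. It had 22.4, 29.0, 26.4 and 27.8 CPM in K14;Nogo-A replicates 1, 2, 7 and 10, against 20.6, 20.0 and 21.8 CPM in wild-type replicates 3, 8 and 9. Every K14;Nogo-A library lay above every wild-type library, though K14;Nogo-A replicate 1 exceeded wild-type replicate 9 only slightly. The log2 fold change was 0.35 (SE 0.11, 95% interval 0.09 to 0.60, edgeR p = 0.0112, adjusted p = 0.271, exact permutation p = 0.0571). Leaving out each library in turn gave values between 0.30 and 0.42. The transcript of Tfip11, a splicing factor known as a partner of tuftelin, had 46.5 ± 2.65 CPM in K14;Nogo-A and 44.9 ± 3.41 CPM in wild-type, with a log2 fold change of 0.05 (SE 0.10, edgeR adjusted p = 0.856).

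**Figure D2:**
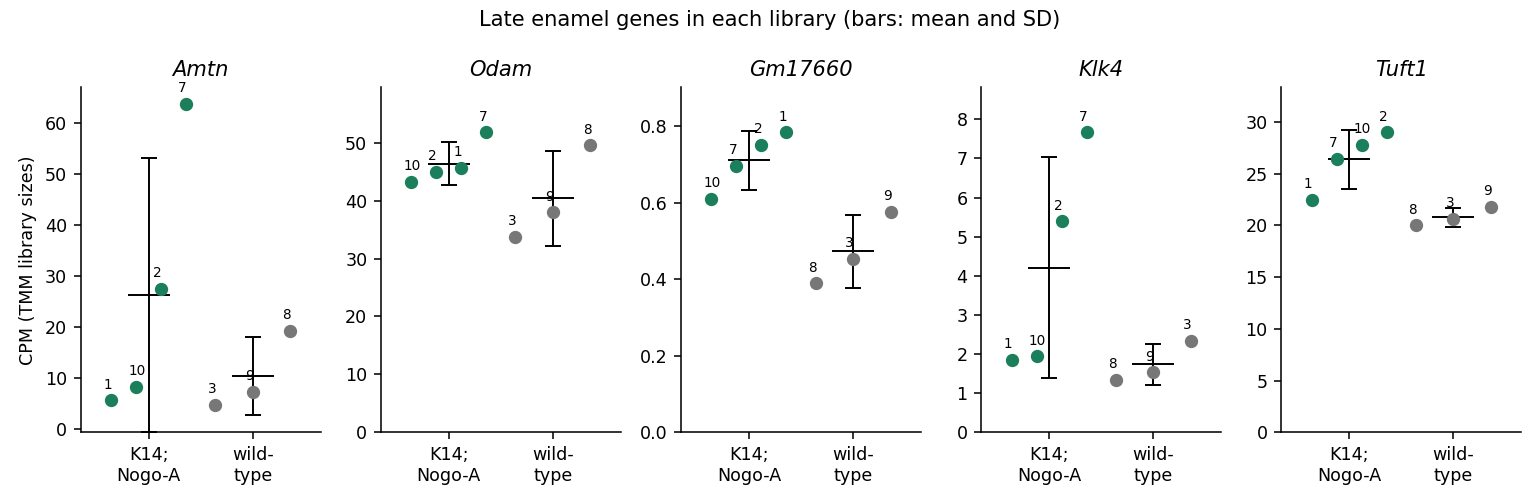
CPM of each late enamel gene in each library, K14;Nogo-A in green and wild-type in grey, labelled with the replicate number, with bars for the mean and SD. Amtn and Klk4 were highest in K14;Nogo-A replicates 7 and 2, whereas all K14;Nogo-A points of Gm17660 and Tuft1 lay above the wild-type points.

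As a list, all 5 genes had a positive log2 fold change, with a median of 0.61 beside -0.01 over all genes tested, and none was called. At an adjusted p under 0.05 edgeR called 0 of the 5, against 0.0338% of all genes (5 genes, all lower in K14;Nogo-A), and 2 of the 5 (Klk4 and Tuft1) had an unadjusted p under 0.05, against 12.9% of all genes. DESeq2 called 0 of the 4 to which it gave an adjusted p, Gm17660 having none, against 2.2% of 13068 genes. The study's thresholds ask for an unadjusted p no higher than 0.05 together with a log2 fold change no smaller than 0.5 in either direction. Of the 5, Klk4 was the 1 gene counted there as higher, against 2.02% of all genes, and 0 of the 5 were counted as lower, against 2.74%. Tuft1 missed the second threshold and Gm17660 the first. The K14;Nogo-A libraries lay wholly above wild-type in CPM in 2 of the 5 (Gm17660 and Tuft1), against 5.43% of all genes, and wholly below in 0 of the 5, against 6.09%. Klk4 stayed past the study's thresholds in 11 of 19 alternative settings. It missed them when replicate 2 or 7 of K14;Nogo-A, or replicate 8 or 9 of wild-type, was left out. The other misses were limma-voom, no filter beyond 1 count, the Y-linked covariate and the mesenchymal covariate, where its sign turned. Scaling by library totals alone moved the whole-table split at these thresholds to 231 higher and 560 lower, against 299 higher and 406 lower, and left the sign of all 5 genes.

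**Figure D3:**
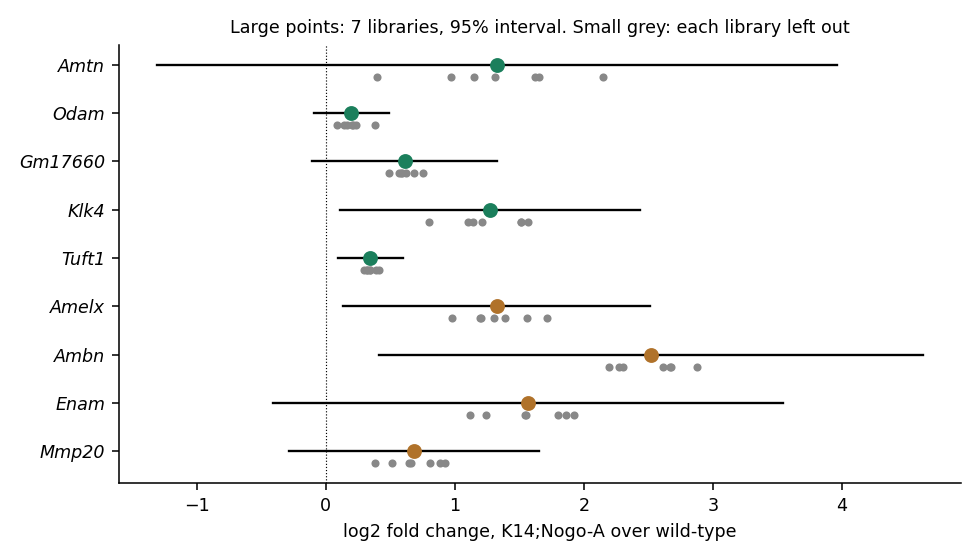
Log2 fold change of K14;Nogo-A over wild-type for the 5 late genes (green) and 4 secretory genes (brown), with 95% intervals from edgeR and, in grey, the values with each library left out. The interval of Amtn ran from -1.31 to 3.96, that of Tuft1 from 0.09 to 0.60, and no left-out library turned a sign.

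Over the 7 libraries Odam and Tuft1 varied little, while Amtn and Klk4 varied widely. Gm17660 lay between, with a biological coefficient of variation of 18.8%, at or above that of 74.4% of the genes tested. At 12 to 20 counts a library and a counting error of 24.5%, its variation between pups is uncertain. Likeness of 2 genes was measured as the root-mean-square (RMS) difference of their log2 CPM after each gene's mean over the 7 libraries was subtracted. This measure grows with the size of each gene's variation as well as with a difference in shape. The RMS around a gene's own mean was 0.20 for Odam and Tuft1, 0.31 for Gm17660, 0.86 for Klk4 and 1.26 for Amtn. Gm17660 and Tuft1 differed by 0.22, Odam and Tuft1 by 0.23 and Odam and Gm17660 by 0.32. These differences were about as large as the profiles themselves, so they do not show a shared shape. In wild-type replicate 8, the centred values were 0.19 for Odam, -0.25 for Tuft1 and -0.53 for Gm17660. Klk4 differed from Tuft1 by 0.74, from Gm17660 by 0.74 and from Odam by 0.81, and from Amtn by 0.84, although Amtn and Klk4 were both highest in K14;Nogo-A replicates 7 and 2. Amtn differed from Odam by 1.12, from Tuft1 by 1.18 and from Gm17660 by 1.24. Amtn and Klk4 parted in wild-type replicate 8. Amtn was 0.58 above its own mean there. Klk4 was 0.91 below its own mean on the log2 scale, its lowest library. The secretory genes were all lowest in wild-type replicate 8, with Enam 2.51 and Amelx 1.78 below their means, so Amtn was relatively high in the library where they were low.

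**Figure D4:**
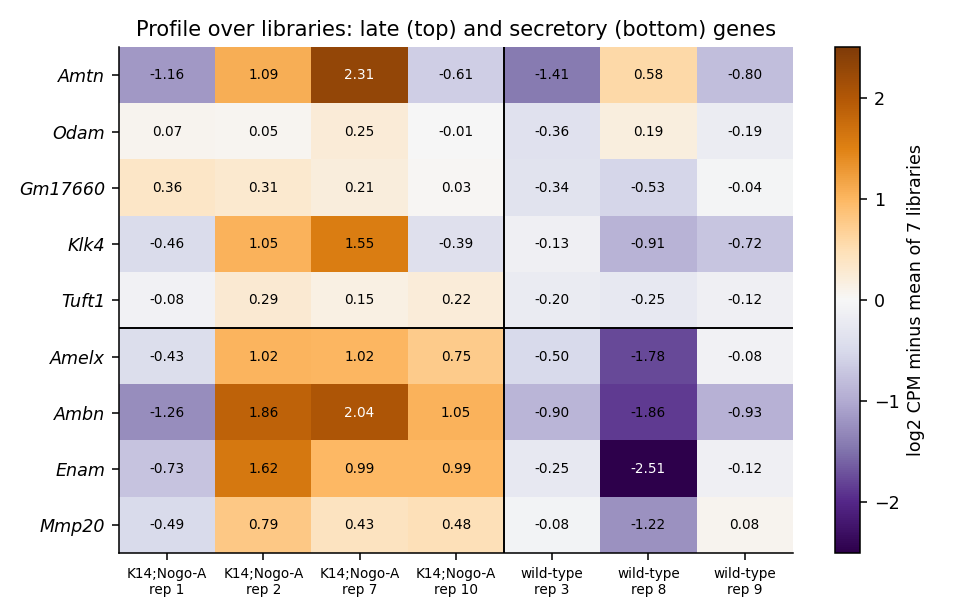
Log2 CPM minus the mean of the 7 libraries for each gene (rows) in each library (columns, K14;Nogo-A left of wild-type), late genes above the line and secretory genes below it. In wild-type replicate 8 Amtn was at 0.58 while Enam was at -2.51, and K14;Nogo-A replicate 7 held the highest value of Amtn, 2.31, and of Klk4, 1.55.

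The genes with the most similar profiles were sought among 12673 genes with a mean count of at least 50, the 5 late genes left out. For Amtn the nearest was Oc90, which encodes an otoconial matrix protein, at an RMS difference of 0.65, followed by Mgp, the matrix Gla protein that inhibits calcification, at 0.88 and the integrin gene Itgb3 at 0.91. No gene came close, given that the profile of Amtn itself had an RMS of 1.26 around its mean. For Klk4 they were Tns4 (a tensin) at 0.32, Crhr1 (a corticotropin-releasing hormone receptor) at 0.35 and Cldn1 (a tight junction claudin) at 0.39. The log2 fold changes of these were 0.98 for Tns4, 1.46 for Crhr1 and 0.94 for Cldn1. Values near that of Klk4 follow from the way these genes were picked. Odam, Gm17660 and Tuft1 had matches at smaller RMS differences, beside the smaller RMS of their own profiles. The closest were Ccdc142, Actr3b and Cox6b2 for Odam (0.07 to 0.08), Tmem150a, Dgkq and Osbpl7 for Gm17660 (0.05 to 0.08) and Arrdc1, Il13ra1 and Grhl2 for Tuft1 (0.05 to 0.06). Grhl2 is a transcription factor of epithelial cells.

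The secretory genes had log2 fold changes above those of Odam, Gm17660 and Tuft1, with none called by edgeR and the differences between genes not tested. The log2 fold change was 1.32 for Amelx (SE 0.50, edgeR adjusted p = 0.346) and 2.52 for Ambn, the ameloblastin gene (SE 0.84, adjusted p = 0.319). It was 1.57 for Enam, the enamelin gene (SE 0.79, adjusted p = 0.469), and 0.68 for Mmp20 (SE 0.40, adjusted p = 0.522). DESeq2 called Ambn (adjusted p = 0.00652), and so did edgeR without K14;Nogo-A replicate 1 (adjusted p = 0.00931). Amelx and Ambn were past the study's thresholds as higher, against 2.02% of all genes. The genotypes overlapped in all 4 genes, with K14;Nogo-A replicate 1 low among its group.

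Set against the mean log2 CPM of these 4 secretory genes in the same library, each late gene averaged lower in K14;Nogo-A. The mean difference between the genotypes was -1.27 for Odam, -1.14 for Tuft1 and -0.95 for Gm17660, against -0.53 for Amtn and -0.46 for Klk4. The genotypes overlapped in all 5 and no test was made. The 4 secretory genes themselves had log2 fold changes from 0.68 to 2.52, so the relative level falls without any fall of the late gene. For Odam the relative level was -5.76, -7.83, -7.42 and -7.38 in K14;Nogo-A replicates 1, 2, 7 and 10, against -6.49, -4.52 and -6.49 in wild-type replicates 3, 8 and 9. Wild-type replicate 8 had the highest relative level of all 5 genes, and without it the mean difference was -0.61 for Odam and turned to 0.53 for Amtn.

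**Figure D5:**
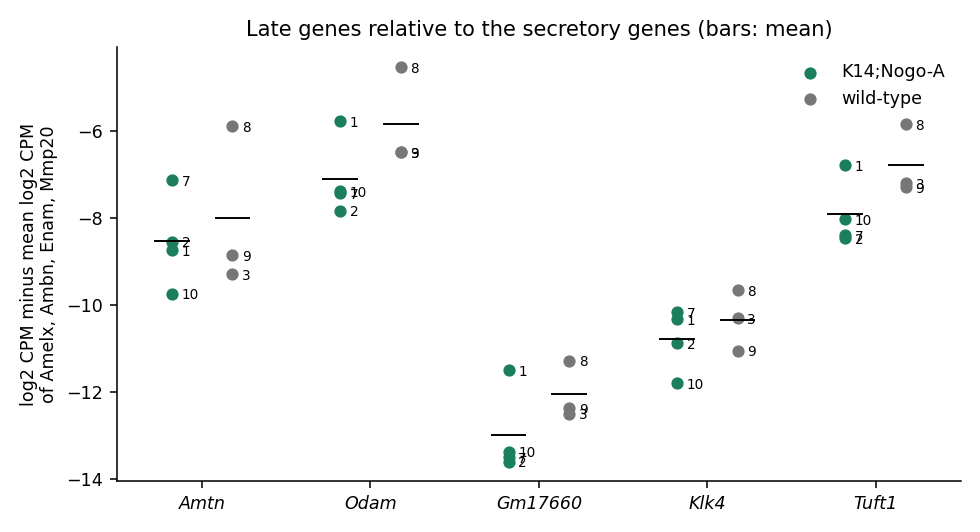
Log2 CPM of each late gene minus the mean log2 CPM of Amelx, Ambn, Enam and Mmp20 in the same library, K14;Nogo-A in green and wild-type in grey, with replicate numbers and bars for the mean. Wild-type replicate 8 is the topmost point of each gene, for example at -5.89 in Amtn and -4.52 in Odam.

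The markers of mesenchyme leaned one way between the genotypes. All 18 mesenchymal markers had a negative log2 fold change, with a median of -0.53. Of them 1, the fibronectin gene Fn1, was called lower by edgeR (log2 fold change -0.82, SE 0.10, adjusted p = 0.0276), against 0.0338% of all genes called. Past the study's thresholds, 5 of the 18 were lower, against 2.74% of all genes, and 0 were higher, against 2.02%. The summed level of the 18 ran from 11833 to 33796 CPM in K14;Nogo-A and from 27510 to 42196 CPM in wild-type. Odontoblast markers, such as Dspp, were detected as well, with sums from 7929 to 28334 CPM in K14;Nogo-A against 19577 to 34362 CPM in wild-type. The collagen gene Col1a1 is in both lists and is the largest part of both sums, which are therefore not independent. It averaged 12053 CPM in K14;Nogo-A and 22882 CPM in wild-type, against 2555 and 4312 CPM for Dspp. The summed endothelial markers lay between 117 and 196 CPM in K14;Nogo-A and between 203 and 230 CPM in wild-type, without overlap. Of these 6 markers, 4 were past the study's thresholds as lower and 0 as higher. The summed oral keratinocyte markers lay between 36.4 and 51.0 CPM in K14;Nogo-A and between 27.2 and 36.3 CPM in wild-type, with Ivl, the involucrin gene, at 0 in all libraries. The median log2 fold change was -0.43 over 7 immune markers and -0.23 over 6 markers of dividing cells. The 10 epithelial markers had a median log2 fold change of 0.22, close to that of Odam and below that of Gm17660 and Tuft1. With the mean of the mesenchymal markers as a covariate, the log2 fold changes of Amtn, Klk4 and Tuft1 turned to -2.85 (SE 4.66), -2.50 (SE 1.42) and -0.22 (SE 0.36). The marker means do not overlap between the genotypes, so tissue purity and genotype cannot be told apart.

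Y-linked transcripts also divided the libraries unevenly between the genotypes. Among the libraries in which they were high, 1 K14;Nogo-A library minus the mean of 2 wild-type libraries gave -0.74 for Amtn, 0.06 for Klk4, 0.14 for Tuft1, 0.16 for Odam and 0.80 for Gm17660 in log2 CPM. Among those in which they were low, 3 K14;Nogo-A libraries against 1 wild-type library gave 1.73 for Amtn, 1.45 for Klk4, 0.34 for Tuft1, 0.29 for Odam and 0.22 for Gm17660. Amtn thus changed sign between the sets, and the Klk4 difference was near 0 among the libraries with high Y-linked transcripts. These sets are too small for a test.

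A wider list of genes linked to maturation-stage ameloblasts gave a mixed picture. Of the 33 listed, among them genes for ion transport, acid-base balance, iron handling and matrix removal, 31 were tested. The list was not checked for genes that are also expressed in the secretory stage. None was called, against 0.0338% of all genes, and the median log2 fold change was 0.18. Past the study's thresholds, 5 were higher, against 2.02% of all genes, and 0 were lower, against 2.74%. Tfrc, the transferrin receptor gene, had 150 ± 36.6 CPM in K14;Nogo-A and 103 ± 10.7 CPM in wild-type, with a log2 fold change of 0.54 (SE 0.17, edgeR adjusted p = 0.268). Itgb6, an integrin subunit gene linked to enamel maturation, had 38.7 ± 11.4 CPM in K14;Nogo-A and 20.3 ± 6.58 CPM in wild-type, with a log2 fold change of 0.94 (SE 0.29, adjusted p = 0.271). Neither overlapped between the genotypes, and 5.43% of all genes were likewise wholly above wild-type. Slc26a6, named after its value was seen, did not overlap either, at a log2 fold change of 0.23. The anion exchanger gene Slc4a2 had a log2 fold change of 0.42 (SE 0.16, adjusted p = 0.313) and the carbonic anhydrase gene Car12 one of -0.37 (SE 0.14, adjusted p = 0.303). The other 3 past the thresholds, named after their values were seen, were Acp4 (an acid phosphatase gene) at 1.99, Slc24a4 (a calcium exchanger gene) at 1.68 and Relt at 1.49. All 3 values lay between those of the secretory genes Amelx, 1.32, and Ambn, 2.52. The stage at which these genes are expressed was not tested. Slc24a4 itself stood at only 5 to 39 counts.

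The basal lamina to which amelotin, ODAM and SCPPPQ1 locate contains laminins. The laminin chain gene Lamb3 had a log2 fold change of 0.99 (SE 0.41, edgeR adjusted p = 0.381), which was past the study's thresholds, and Lama3 had one of 1.86 (SE 0.79, adjusted p = 0.417), which was not. Itgb4, the integrin subunit gene of hemidesmosomes, had one of 0.21 (SE 0.18, adjusted p = 0.662). The genotypes overlapped in each of these.

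The chromosomal surroundings of the late genes were unevenly expressed. Of the 10 coding genes around Odam, 5 on each side in gene order, 9 had no count in any library. Among the 9 were the casein genes Csn1s1, Csn2, Csn1s2a and Csn1s2b, and only Csn3 at 31.4 kb passed the filter. These neighbours were chosen after the data were seen. Amtn lies 70.1 kb from Ambn and 102.1 kb from Enam, with mean levels of 13090 CPM for Ambn in K14;Nogo-A and 2281 CPM in wild-type. Of 12 related genes, 10 of the SCPP family with Sparc and Sparcl1, from whose lineage the family is held to derive, 7 were tested. Of these, 0 were called, against 0.0338% of all genes. Past the study's thresholds were 0 of the 7, against 2.02% of all genes as higher and 2.74% as lower. The median log2 fold change was -0.54 over the 7 and -0.67 over the 5 tested without Sparc and Sparcl1. The ones with the smallest p are genes of bone and dentine matrix and of mesenchymal cells, namely Sparc at -0.54, Dspp at -0.76, Ibsp at -0.67 and Dmp1 at -1.01. They share the direction of the mesenchymal markers.

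Klk4 lies between Klk5 at 30.0 kb, with 2 counts in all libraries together, and Klk15 at 47.9 kb, with 17. Of 12 other kallikreins, 5 were tested and 1 was past the study's thresholds as higher, against 2.02% of all genes. This was Klk8, a peptidase gene of epithelia 77.3 kb from Klk4, with 25.5 ± 2.67 CPM in K14;Nogo-A and 16.1 ± 2.51 CPM in wild-type. Its K14;Nogo-A libraries lay wholly above wild-type, as in 5.43% of all genes. The log2 fold change of Klk8 was 0.67 (SE 0.14, edgeR adjusted p = 0.154). Klk11, Klk10 and Klk9 had log2 fold changes of 0.23, 0.14 and 0.22, with edgeR adjusted p of 0.697 or more.

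Of 18 transcription factors and signals that act in ameloblasts, 0 were called, against 0.0338% of all genes. Past the study's thresholds were 0 as well, against 2.02% of all genes as higher and 2.74% as lower. With shares this small, 0 of 18 sets the list apart in no way. The median log2 fold change of the 18 was -0.02. The smallest p values belonged to Trps1, with a log2 fold change of -0.45 (SE 0.12, edgeR adjusted p = 0.211), Runx2, with -0.47 (SE 0.13, adjusted p = 0.218), Nfic, with -0.30, and Cbfb, with -0.20. Runx2, the osteoblast and tooth transcription factor, and Trps1 were lower in each K14;Nogo-A library than in any wild-type library, as were the means of the mesenchymal markers, in whose cells both are also expressed. Of all genes, 6.09% lay wholly below wild-type in this way. The part of cell composition in the values of Runx2 and Trps1 was not tested.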

How the data were processed

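RNA of 7 incisor epithelia was sequenced (single-end). Each deposited file holds the authors' raw read counts by Ensembl ID, made with bcl2fastq 2.19, adapter trimming (Trimmomatic in the submitters' notes, fastp in the paper), STAR 2.7.1 on GRCm38 and featureCounts; the sources used here do not give the strand setting. Symbols came from GENCODE M21 (25664 of 25700 IDs matched).

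Genes with at least 10 counts in 50% of the libraries of a genotype were tested with edgeR 4.0.16 in R 4.3.3 (TMM, robust quasi-likelihood test, no covariate) and Benjamini-Hochberg adjustment over all 14791 genes. CPM used TMM library sizes, log2 CPM a prior count of 2, and TPM the union of exons. Exact two-sided permutation tests used all 35 assignments of 4 and 3 libraries. Each library is 1 pup, and intervals of single counts cover counting error only. The study's threshold of 0.5 appears both as a fold and as a log2 ratio, and the log2 form was used. Scripts were tested on simulated data.

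The genes named are the 5 members, 4 secretory genes, the 3 nearest profiles of each member, up to 4 genes with the smallest p in each of 16 lists and genes sharing exons with a member. A gene that this rule takes is not reported here. Members and lists were chosen with earlier results of these data known. RefSeq promoters matched 4 of the 5 genes, all but Tuft1. Alternatives were RLE, upper-quartile and total-count scaling, scaling without the secretory genes, the likelihood-ratio test, DESeq2 1.42.0, limma-voom (limma 3.58.1), 2 filters, mesenchymal or Y-linked covariates, thinning to 20929207 counts, longest transcripts for TPM, and each library left out.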

Additional observations from a re-analysis of the deposited data

How the results depend on the processing

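None of the 5 genes was called in an alternative that gave it an adjusted p, 18 for Gm17660, to which DESeq2 gave none, and 19 for each other gene. The adjusted p ran from 0.524 to 0.925 for Amtn, 0.490 to 0.904 for Odam, 0.103 to 0.825 for Klk4, 0.353 to 0.980 for Gm17660 and 0.0804 to 0.919 for Tuft1. With the mesenchymal covariate, which does not overlap between the genotypes, the log2 fold change turned to -2.85 for Amtn, -2.50 for Klk4 and -0.22 for Tuft1. All others kept a positive sign, and leaving out each library gave 0.40 to 2.15 for Amtn, 0.08 to 0.38 for Odam, 0.80 to 1.57 for Klk4, 0.49 to 0.75 for Gm17660 and 0.30 to 0.42 for Tuft1. With the Y-linked covariate the value was 0.56 for Amtn and 0.87 for Klk4.

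The counts of genes called over the whole table were unstable, and the cause was not tested. Against 0 higher, the likelihood-ratio test called 58, DESeq2 132 and no filter 1, and leaving out each library gave 0 to 97. Against 5 lower, total-count scaling called 9, the likelihood-ratio test 108, DESeq2 156, no filter 20, the mesenchymal covariate 0 and the Y-linked covariate 9, and leaving out each library gave 0 to 124. Leaving out replicate 1 of K14;Nogo-A gave 97 higher and 124 lower, and leaving out replicate 9 of wild-type gave 45 higher and 48 lower. Leaving out replicate 3 of wild-type gave 1 higher and 0 lower, and replicate 7 of K14;Nogo-A 0 higher and 1 lower. Leaving out any of the other 3 gave 0 in both directions. Using the longest transcript lowered the mean TPM of Odam to 76.3 and of Tuft1 to 21.6, with the same order of the 5 means. The order within single libraries moved where levels were close. In wild-type replicate 9, Amtn then lay below Tuft1, at 17.7 against 20.4 TPM. In K14;Nogo-A replicate 1, Klk4 then lay below Gm17660, at 3.64 against 3.70 TPM. Relative to the secretory genes, leaving out each library gave mean differences of -1.17 to 0.53 for Amtn, -1.71 to -0.61 for Odam, -0.81 to -0.12 for Klk4, -1.44 to -0.56 for Gm17660 and -1.52 to -0.67 for Tuft1. No paired analysis was made. The paper calls the controls littermates, but the sample titles number all pups in a single run and name no pairs. The depth limits Gm17660, at 12 to 20 counts a library.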
